A study of Mus musculus with 6 samples.

Results

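Ly6g, Emp1, Serpinb5, Muc1, Flot1 and Plac8 are 6 genes that were higher in activated CD4+ T cells both in medium with placental growth factor and in medium with IL-6 than in control medium. Timp1 was added for contrast, as a gene with a larger difference in one treatment than in the other. These 7 of the 22180 genes measured were chosen by their log2 differences from control medium on the same arrays, so those differences describe the choice and carry no test here. No numeric threshold was set for the choice. Each gene was read from the probe set that the array's annotation assigns to its symbol alone, and Emp1, which had 2 such probe sets, from the brighter of them.

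CD4+ T cells were taken from mouse spleen with magnetic beads, and were kept for 12 hours in RPMI medium with serum while antibodies to CD3 and CD28, at 1 µg/ml, stimulated them in all 3 groups. The first group received control conditioned medium (ConCM). The second received medium conditioned by clones of HEK-293, a human embryonic kidney line, that overexpress the PlGF2 form of placental growth factor (PlGFCM), and the third (IL6_ConCM) received control medium to which IL-6 had been added at 20 ng/ml. There were 2 samples per group, each on 1 array, and the sources used here give no strain, sex or age of the mice. PlGFCM also carries whatever else these clones secrete, and the effect of the growth factor alone cannot be told apart from that.

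Placental growth factor is a secreted relative of VEGF whose receptors include Flt1 and neuropilin 1. IL-6 binds its receptor chain together with gp130 and activates the transcription factor STAT3, and in CD4+ T cells it is known for its part in the choice between helper fates. The 7 genes encode proteins of different families. Ly6g encodes a GPI-anchored surface protein best known as the marker of mouse neutrophils. Muc1 encodes a transmembrane mucin that is best known from epithelia. Emp1 encodes a small membrane protein with 4 membrane-spanning stretches, of the family of the myelin protein PMP22. Flot1 encodes flotillin 1, which lines the inner face of membrane rafts, and so the label of surface and secreted genes holds for it only as a membrane protein. Serpinb5 encodes maspin, a serpin without known protease-inhibitor activity, and Timp1 encodes a secreted inhibitor of metalloproteinases. Plac8 encodes a small cysteine-rich protein that is found inside cells.

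RefSeq sequence upstream of the transcript start was available for 6 of the 7 genes, all but Flot1, and is shown for the genes on which the comparison turns (build GRCm38.p6, plus strand, 5′ to 3′). The letters TTCNNNGAA, a pattern that STAT proteins bind, and TGANTCA, a pattern that AP-1 proteins bind, were searched on both strands in the 250 bases before each start, and matched letters are in capitals. Ly6g, Emp1 and Plac8 had 2 starts in the table and so 2 windows each. In 9 windows of these 6 genes, 1 window, the first of Emp1, held TTCNNNGAA. TGANTCA was held by 2, that same Emp1 window and the Serpinb5 window, and the second Emp1 window held neither pattern. Of all 32851 windows in the table, 7.02% held TTCNNNGAA and 6.75% held TGANTCA. The first Emp1 window lies within the span of a longer transcript of that gene, so only 30-base stretches around its matches are given. The first begins its match 145 bases before the start, the second 120 and the third, where both patterns overlap, 25.
Emp1 chr6:135362774-135362803: ggtctgtgtgtcTGAGTCAgagggagctac
Emp1 chr6:135362800-135362829: ctacaacagggTTCTTTGAAttgatggctc
Emp1 chr6:135362897-135362926: aatccagacTGATTCATAGAAactccttta

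The windows of Serpinb5, which had the largest IL-6 difference of the 7 genes, of Ly6g, which had the largest of them in PlGFCM, and of Timp1, the gene for contrast, are shown whole. Neither pattern was present in the Ly6g or Timp1 letters or in the second Ly6g window, and this says only that they are not in these windows. A match in such a window is a description and not a bound site.
Serpinb5 chr1:106860925-106861174: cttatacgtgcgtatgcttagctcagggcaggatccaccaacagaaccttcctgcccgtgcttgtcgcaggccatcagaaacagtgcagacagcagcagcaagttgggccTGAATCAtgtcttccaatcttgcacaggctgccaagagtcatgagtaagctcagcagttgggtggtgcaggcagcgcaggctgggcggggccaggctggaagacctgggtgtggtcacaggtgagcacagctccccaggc
Ly6g chr15:75155011-75155260: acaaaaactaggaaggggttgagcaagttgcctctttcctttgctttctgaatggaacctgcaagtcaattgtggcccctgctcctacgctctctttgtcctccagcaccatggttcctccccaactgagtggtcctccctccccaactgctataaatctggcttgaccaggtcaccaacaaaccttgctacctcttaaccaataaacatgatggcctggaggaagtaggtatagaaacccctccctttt
Timp1 chrX:20869916-20870165: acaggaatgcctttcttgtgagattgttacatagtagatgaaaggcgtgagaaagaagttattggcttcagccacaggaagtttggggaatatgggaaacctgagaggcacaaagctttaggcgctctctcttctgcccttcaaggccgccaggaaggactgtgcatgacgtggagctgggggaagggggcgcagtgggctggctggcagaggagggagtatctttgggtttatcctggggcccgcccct

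Median log2 levels of the arrays lay between 5.47 and 5.51, and 1 array stood apart by sex-linked genes. Xist, transcribed from the inactive X chromosome, was at 8.38 on PlGFCM replicate 2 and at 3.58 to 3.95 elsewhere. The Y-linked Uty, Kdm5d and Eif2s3y were lowest there, at 7.50, 7.07 and 8.59. Elsewhere they were at 7.77 to 8.14, 7.42 to 7.77 and 8.90 to 9.14, so all were above the median gene, 5.63, on every array. The members' values without PlGFCM replicate 2 are therefore given with the results. For genes named from the lists as passing or furthest from ConCM, such values are given where they move by over 1.5 times. Other genes, such as Ly6c1, Timp2 and those closest in profile, were not examined without it. The labels do not say whether the 2 samples of a group came from separate animals or cultures, and their spread may be technical. The exception is PlGFCM, whose samples were at 3.58 and 8.38 for Xist and so were not repeats of the same RNA. How they came to differ was not tested. In these bulk samples, a change in the number of cells of a type and a change in RNA per cell cannot be told apart. T cell markers were high, with mean log2 levels of 11.28 for Cd4 and 12.01 for Cd3e. Cd8b1, a marker of CD8 T cells, had a mean of 8.23 in ConCM, and the purity of the CD4+ cells was not tested. Levels are compared between arrays for 1 gene at a time, since different probe sets respond differently to the same amount of RNA.

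Among the surface proteins, Ly6g had a log2 level of 5.08 and 5.04 on the ConCM arrays, 6.68 and 6.69 on the PlGFCM arrays and 6.48 and 6.35 on the IL6_ConCM arrays. The 3 groups did not overlap, PlGFCM was highest, and the replicates of each group lay within 0.14 of each other. Against ConCM the difference was 1.62 ± 0.11 (SE) in PlGFCM, or 3.08-fold, and 1.36 ± 0.11 in IL6_ConCM, or 2.56-fold. By the smaller of its differences in the 2 treatments, Ly6g ranked 1 of all genes that lay above ConCM in both. Ly6g belongs to a gene family, and its probe set was not compared by sequence with the other members. Whether it reads Ly6g alone was not tested. The related genes Ly6c1, Ly6c2 and Ly6i, which encode surface proteins of the same family, had log2 differences of 0.15, 0.13 and 0.10 in PlGFCM and of 0.05, 0.05 and -0.14 in IL6_ConCM. None of these 3, named as close relatives after their values were seen, passed the limma test over all genes. Ly6a, another gene of this family, was not among the genes measured, so its level could not be set beside that of Ly6g.

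Muc1 had a log2 level of 6.91 and 6.51 on the ConCM arrays, 7.69 and 7.79 on the PlGFCM arrays and 7.76 and 7.76 on the IL6_ConCM arrays. Every treated array was above both ConCM arrays, and the treated groups overlapped each other. Its log2 difference from ConCM was 1.03 ± 0.13 (SE) in PlGFCM and 1.05 ± 0.13 in IL6_ConCM, 2.04-fold and 2.07-fold. The ConCM replicates were 0.40 apart, against 0.11 in PlGFCM and 0.01 in IL6_ConCM. The SE pools the 3 groups and also draws on the spread of all other genes, so it does not measure this gap alone. Without ConCM replicate 2 the differences were 0.83 and 0.85, and without ConCM replicate 1 they were 1.23 and 1.25.

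Emp1 had a log2 level of 7.33 and 7.17 on the ConCM arrays, 8.70 and 8.69 on the PlGFCM arrays and 8.05 and 8.18 on the IL6_ConCM arrays. The 3 groups stood in steps without overlap, with IL6_ConCM between the others. The log2 difference from ConCM was 1.44 ± 0.09 (SE) in PlGFCM, or 2.72-fold, and 0.86 ± 0.09 in IL6_ConCM, or 1.82-fold. A second, dimmer probe set of Emp1 read 3.24 and 2.98 on the ConCM arrays, 3.57 and 4.01 on the PlGFCM arrays and 3.32 and 3.33 on the IL6_ConCM arrays. It kept the same order of groups, with smaller differences of 0.68 and 0.22. With the mean of both probe sets the Emp1 difference was 1.06 in PlGFCM and 0.54 in IL6_ConCM, and Emp1 was no longer called in IL6_ConCM. The dimmer probe set lay on the same arrays and near the lower end of the scale.

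Flot1, on the inner face of the membrane, had a log2 level of 8.31 and 8.18 on the ConCM arrays, 8.96 and 8.94 on the PlGFCM arrays and 8.85 and 8.93 on the IL6_ConCM arrays. The treated groups lay within 0.12 of each other and above both ConCM arrays. The log2 differences were 0.71 ± 0.08 (SE) and 0.64 ± 0.08, or 1.63-fold and 1.56-fold, the smallest of the 7 genes in PlGFCM. Flotillin 2, encoded by Flot2 and known to form complexes with flotillin 1, had log2 differences of 0.26 (adjusted p = 0.393) and 0.17 (adjusted p = 0.949), which did not pass.

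Plac8 had a log2 level of 7.94 and 7.38 on the ConCM arrays, 8.49 and 8.67 on the PlGFCM arrays and 8.69 and 8.66 on the IL6_ConCM arrays. All treated arrays were above both ConCM arrays, but the ConCM replicates were 0.56 apart, the widest replicate gap among the 7 genes. The log2 differences were 0.92 ± 0.15 (SE) in PlGFCM and 1.01 ± 0.15 in IL6_ConCM, 1.89-fold and 2.02-fold. They were 0.64 and 0.73 without ConCM replicate 2, and 1.20 and 1.29 without ConCM replicate 1. The size of the Plac8 difference thus depended more on a single control array than that of any other of these genes.

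**Figure D1:**
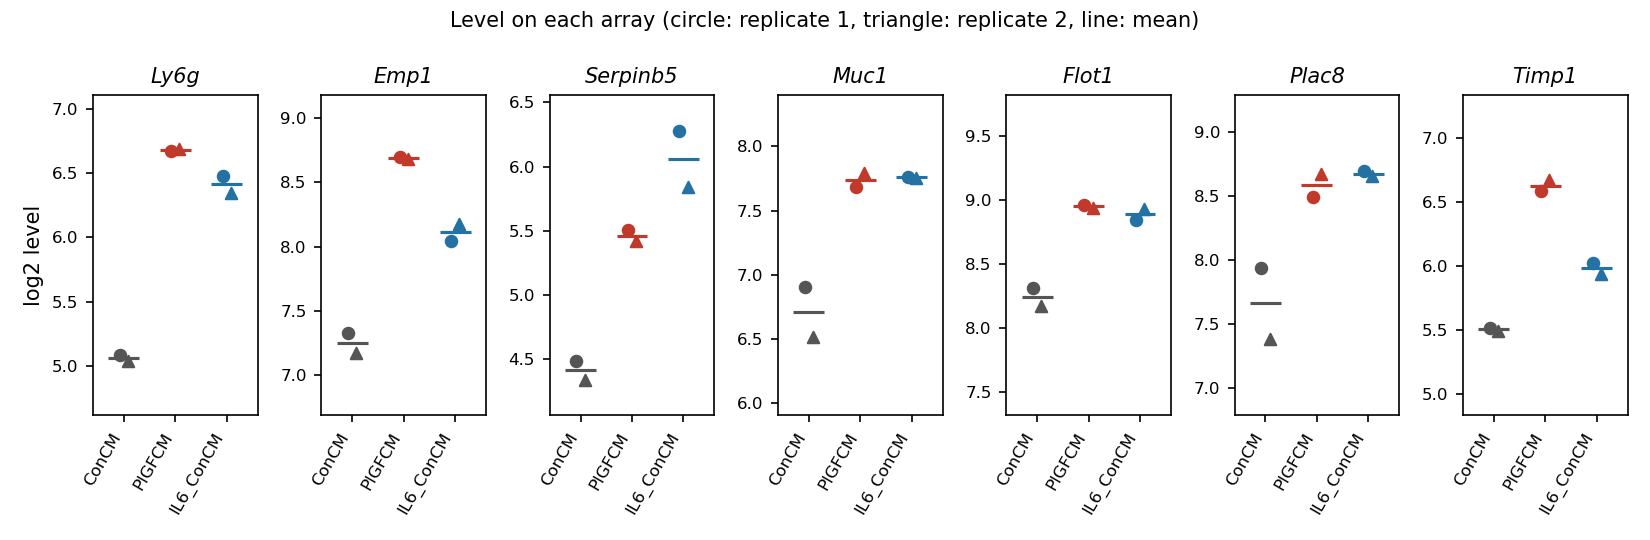
Log2 level of the 7 genes on each of the 6 arrays, by group. Circles are replicate 1, triangles replicate 2 and lines the mean of 2 arrays, and every panel spans 2.5 log2 units. Both ConCM arrays are lowest in all panels, and IL6_ConCM is above PlGFCM for Serpinb5 and below it for Ly6g, Emp1 and Timp1.

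Among the genes of proteins that are secreted or of the protease-inhibitor families, Serpinb5 had a log2 level of 4.48 and 4.34 on the ConCM arrays, 5.51 and 5.42 on the PlGFCM arrays and 6.28 and 5.84 on the IL6_ConCM arrays. Its order differed from that of Emp1, since IL6_ConCM was highest and no groups overlapped. The log2 difference from ConCM was 1.05 ± 0.16 (SE) in PlGFCM, or 2.07-fold, and 1.65 ± 0.16 in IL6_ConCM, or 3.14-fold. The IL6_ConCM replicates were 0.44 apart, and the difference was 1.43 without replicate 1 and 1.87 without replicate 2 of that group. Serpinb5 was the 1 gene of the 7 whose mean level over the arrays, 5.31, was below the median of all genes, 5.63, and the other 6 passed a filter at that median.

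Timp1 had a log2 level of 5.52 and 5.50 on the ConCM arrays, 6.58 and 6.67 on the PlGFCM arrays and 6.03 and 5.94 on the IL6_ConCM arrays. The groups stood in steps without overlap, with replicates at most 0.09 apart. The log2 difference from ConCM was 1.12 ± 0.11 (SE) in PlGFCM, or 2.17-fold, and 0.47 ± 0.11 in IL6_ConCM, or 1.39-fold. In IL6_ConCM its difference was the smallest of the 7 genes.

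A gene was called where its limma p, adjusted by Benjamini-Hochberg over all 22180 genes, was under 0.05. In PlGFCM against ConCM all 7 genes were called higher, where 0.352% of all genes were, and in IL6_ConCM against ConCM 6 were, where 0.0857% of all genes were. Timp1 was the gene not called under IL-6. The 6 genes other than Timp1 were called in both, as were 0.0812% of all genes. These counts restate how the genes were chosen. The 7 genes lay above ConCM without overlap in each treatment. Of all genes, 17.3% lay above ConCM without overlap in PlGFCM, 15.7% in IL6_ConCM and 7.72% in both. By the smaller of their 2 differences, Serpinb5 ranked 4, Muc1 5, Plac8 7, Emp1 10, Flot1 27 and Timp1 58 among the 1713 genes that lay above ConCM in both. The same ConCM arrays entered both comparisons, and all 7 genes were lower on ConCM replicate 2 than on replicate 1, as were 55.0% of all genes.

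Without PlGFCM replicate 2 the log2 differences of PlGFCM from ConCM were 1.62 for Ly6g, 1.45 for Emp1, 1.10 for Serpinb5, 0.98 for Muc1, 0.72 for Flot1, 0.83 for Plac8 and 1.08 for Timp1. All were thus close to their values with that array. Of the calls, those of Ly6g, Emp1 and Timp1 remained and those of the other 4 did not. In IL6_ConCM against ConCM, Ly6g was called whichever array was left out. Without ConCM replicate 2 it was the 1 gene of the 7 still called there. Serpinb5 was called in the other 5 fits, Emp1 and Muc1 were also not called without IL6_ConCM replicate 2, and Flot1 and Plac8 were called in 2 and 1 of the 6 fits. In PlGFCM against ConCM, Ly6g, Emp1 and Timp1 were called in all 6 fits, Muc1 in 4, Flot1 and Plac8 in 3 and Serpinb5 in 2.

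**Figure D2:**
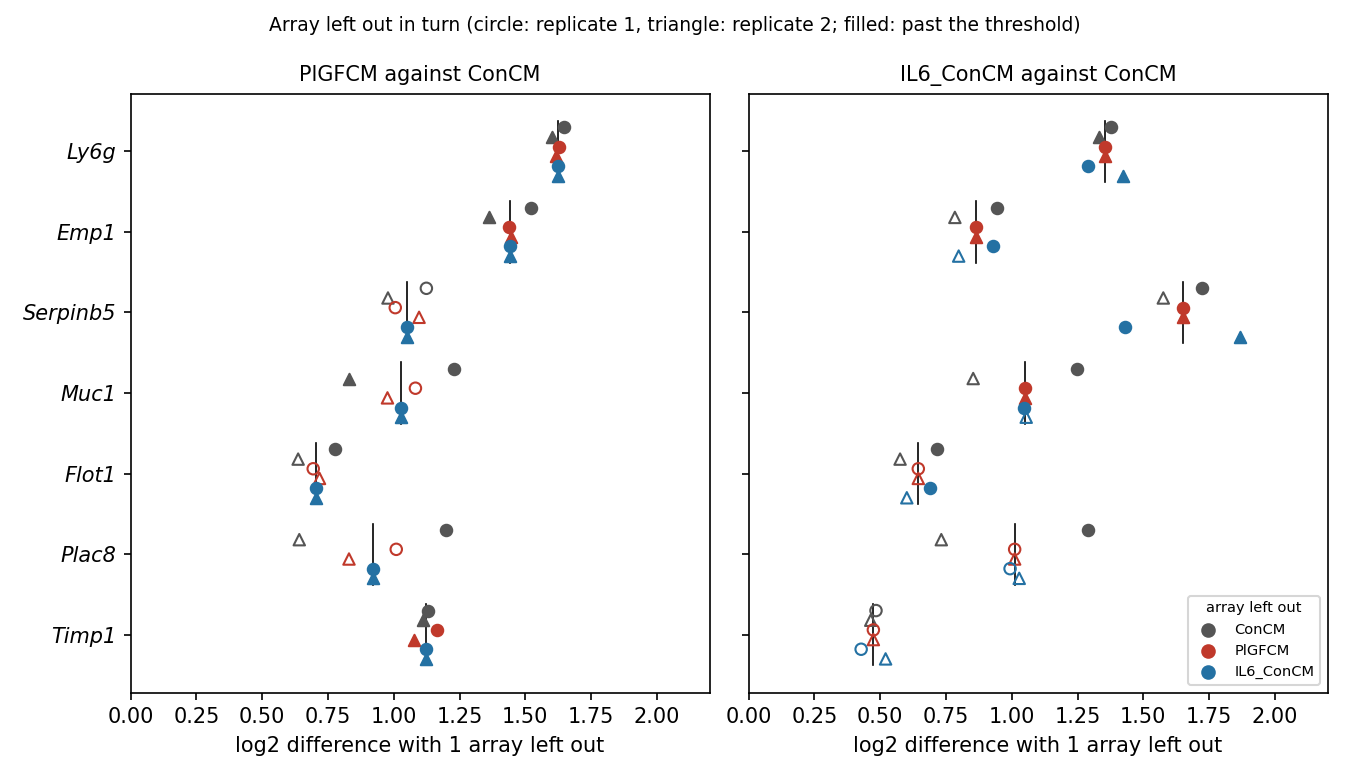
Log2 difference from ConCM of each gene with 1 of the 6 arrays left out, in PlGFCM (left) and IL6_ConCM (right). Colours name the group of the array left out, filled symbols are past an adjusted p of 0.05, and thin lines mark the value with all arrays. Ly6g stays filled throughout, and Muc1 and Plac8 move most with the ConCM arrays.

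The direct comparison of PlGFCM with IL6_ConCM asks whether the treatments differed in size. It is the difference of the same values that chose the genes, and a choice of genes higher in both treatments is not independent of it, so it is given as a description without a test. Of the 7 genes, 0 were called by limma, beside 0.0316% of all genes, and nothing is read from that count. Emp1 was 0.58 higher in PlGFCM, with an unadjusted 95% interval from 0.37 to 0.79 that takes no account of the choice. Serpinb5 was the gene that lay lower in PlGFCM by a similar amount, at -0.60 with an interval from -0.94 to -0.25. Ly6g was 0.27 higher, with an interval from 0.02 to 0.52. For each of these 3 the arrays of the treatments did not overlap, as for 30.1% of all genes when both directions are counted. The shares given above against ConCM count the upward direction alone.

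Muc1, Flot1 and Plac8 lay closer together in the treatments, which overlapped for Muc1 and Plac8 and were 0.0053 apart at their nearest arrays for Flot1. The difference of PlGFCM from IL6_ConCM was -0.02 for Muc1, with an unadjusted 95% interval from -0.30 to 0.25. It was 0.06 for Flot1, with an interval from -0.12 to 0.24, and -0.09 for Plac8, with an interval from -0.42 to 0.23. Intervals that hold 0 do not show that the treatments act alike. Timp1, which was picked for this difference, was 0.65 higher in PlGFCM with an interval from 0.40 to 0.90. With 2 arrays a group, the smallest two-sided p of an exact permutation test would be 0.333.

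**Figure D3:**
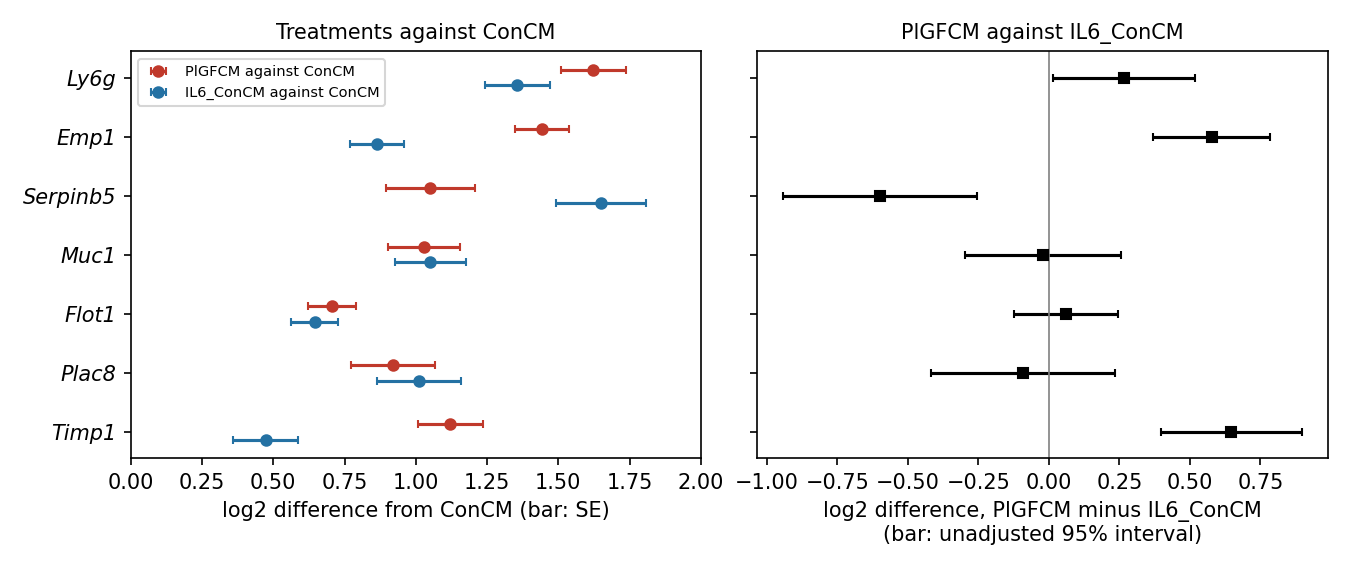
Log2 difference of each gene from ConCM with its standard error (left) and of PlGFCM minus IL6_ConCM with its unadjusted 95% interval (right). Emp1 and Timp1 lie to the right of 0 in the right panel, Serpinb5 to the left, and the intervals of Muc1, Flot1 and Plac8 hold 0.

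Across the 6 arrays Pearson's r between members ran from 0.55, for Serpinb5 and Timp1, to 0.99, for Muc1 and Plac8. The arrays share 3 group means, so r mostly follows the order of the groups, and it is given as a description. Of 170 other genes with a mean at or above the median level and a range of at least 0.8 log2 units, 15 had r over 0.95 with the mean profile of the 6 genes and 5 with that of Timp1. The closest named genes to the 6 were Selp, which encodes the adhesion molecule P-selectin, at r = 0.991, Tdrkh at 0.988, Gzma, the protease granzyme A, at 0.980, the long non-coding RNA Morrbid at 0.974 and Creb3l2, a transcription factor, at 0.969. Closest to Timp1 were Ctsw, the protease cathepsin W, at 0.990, Hamp, the iron hormone hepcidin, at 0.977, Gatm, an enzyme of creatine synthesis, at 0.968, Ctla2a at 0.967 and Pmepa1, a gene known as a target of TGF-beta, at 0.961. Selp was at 6.47 in ConCM, 7.27 in PlGFCM and 7.23 in IL6_ConCM. Ctsw was at 8.20, 9.55 and 8.61.

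The relatives of these genes were measured on the same arrays, and 16 lists of relatives and markers are described by counts and medians with the 7 genes left out. Of all genes, 78 rose and 18 fell in PlGFCM and 19 rose and 6 fell in IL6_ConCM, with a median log2 difference of -0.01 in both. Mean and median differed in sign for the Ly6 family and the B cell markers in both treatments, the clade B serpins and mucins in IL6_ConCM and the flotillin-like proteins in PlGFCM. Of 25 further genes of the Ly6 family none passed in either treatment, with medians of 0.01 and 0.02. In PlGFCM the furthest were Ly6k at 0.49 and Plaur, the urokinase receptor, at -0.37, and in IL6_ConCM Plaur at -0.79 (adjusted p = 0.0590) and Psca at 0.40. Of 4 genes related to Emp1 none passed, with medians of -0.10 and -0.11. Emp2 was at -0.30 and -0.40, and Pmp22 at -0.11 in PlGFCM and Lim2 at -0.13 in IL6_ConCM were next.

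Of 24 other clade B serpins none passed, with medians of -0.10 and 0.00. Serpinb9e at -0.51 and Serpinb1c at -0.40 were furthest in PlGFCM, and Serpinb9b at -0.50 and Serpinb3a at 0.39 in IL6_ConCM. None of 15 other mucins and mucin-like proteins passed, with medians of -0.10 and -0.01. Muc13, a transmembrane mucin, was at 0.60 in IL6_ConCM (adjusted p = 0.122) and Muc6 at -0.20, and Muc16 at -0.32 and Spn, the T cell sialophorin CD43, at 0.25 in PlGFCM. Of 8 further flotillin-like proteins none passed, with medians of -0.12 and -0.10. Stom, which encodes stomatin, was at 0.49 in PlGFCM (adjusted p = 0.0806), and Erlin1 and Erlin2 at -0.25 and -0.24 in IL6_ConCM. Plac8l1 and Cnfn, the 2 relatives of Plac8, were at 0.18 and -0.08 in PlGFCM and at 0.11 and -0.07 in IL6_ConCM and did not pass. Without PlGFCM replicate 2 the PlGFCM differences were -0.22 for Serpinb9e, -0.68 for Muc16 and -0.13 for Cnfn.

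Of 27 further TIMPs, metalloproteinases and related genes, 2 rose in PlGFCM and none in IL6_ConCM, and none fell, with medians of 0.05 and 0.06. Mmp13, the collagenase MMP13, rose by 0.90 ± 0.14 (SE) from 4.80 to 5.69 (limma adjusted p = 0.0242), and Adam19, a membrane metalloproteinase, by 0.63 ± 0.08 from 7.87 to 8.50 (limma adjusted p = 0.00947). Both calls were lost without replicate 2 of ConCM, without either PlGFCM array and without an intensity trend, and that of Adam19 also with the mean of all probe sets, in fits chosen after seeing the data. In IL6_ConCM, Mmp13 was at 0.27 and Adam19 at 0.26, and the furthest were Mmp14 at 0.34 and Timp2 at 0.31. In PlGFCM, Timp2 was at 0.38 (adjusted p = 0.208), Timp3 at -0.01 and Timp4 at 0.03, none of which passed.

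Of 17 genes that respond to STAT3, 2 rose in PlGFCM and none passed in IL6_ConCM, with medians of 0.18 and 0.13. Positive differences were found for 15 of 17 in PlGFCM and for 16 of 17 in IL6_ConCM, against 46.4% and 46.9% of all genes. The mean level of this list was 8.44 to 8.47 in ConCM, 8.67 to 8.71 in PlGFCM and 8.61 to 8.63 in IL6_ConCM. Shares above those of all genes were found in further lists too, though none as high. T cell identity genes were positive for 6 of 7 in both treatments, and TIMPs and metalloproteinases for 17 and 19 of 27. Other lists lay below the share of all genes, as stromal markers with 3 and 2 of 8. Both comparisons used the same ConCM arrays, and the shares were not tested. Socs3, the feedback inhibitor of cytokine receptors, rose by 0.49 ± 0.09 (SE, adjusted p = 0.0442) and Maf, a transcription factor of helper T cells, by 0.85 ± 0.14 (adjusted p = 0.0287). Neither passed when any 1 of the ConCM or PlGFCM arrays was left out or without an intensity trend, nor did Socs3 with array medians subtracted or with the mean of all probe sets. In IL6_ConCM, Il21 was at 0.83 (adjusted p = 0.339) and Socs3 at 0.40 (adjusted p = 0.217).

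Ly6g is used to recognise neutrophils, so the other markers of that cell type were set beside it. None of 15 neutrophil markers passed, with medians of -0.05 in PlGFCM and -0.09 in IL6_ConCM. Their mean log2 level was 4.90 to 4.91 on the ConCM arrays, 4.81 to 4.99 on the PlGFCM arrays and 4.80 to 4.89 on the IL6_ConCM arrays. S100a8, an abundant neutrophil transcript, had log2 levels of 3.23 and 3.09 on the ConCM arrays, 3.07 and 3.24 on the PlGFCM arrays and 3.06 and 2.98 on the IL6_ConCM arrays. S100a9 was at 4.70 and 4.40, 4.23 and 4.75, and 4.25 and 4.20. The S100a8 and S100a9 levels of PlGFCM overlapped those of ConCM, and those of IL6_ConCM lay below those of ConCM. Lcn2 at 0.79 (adjusted p = 0.232) and Elane at -0.26 were furthest in PlGFCM, and S100a9 at -0.33 and Cxcr2 at 0.31 in IL6_ConCM. Lcn2, at 5.62 and 5.35 on the ConCM arrays and 5.87 and 6.68 on the PlGFCM arrays, did not overlap between these groups. Without PlGFCM replicate 2, Lcn2 was at 0.38 and Elane at -0.42. Cxcr2, at 5.33 and 5.32 on the ConCM arrays and 5.86 and 5.41 on the IL6_ConCM arrays, did not overlap either. In PlGFCM, Cxcr2 and Mmp8 also lay above ConCM without overlap, while Ngp, Camp, Elane and Cd177 lay below it. In IL6_ConCM, Camp, Ltf, Mpo, Elane and Cd177 lay below ConCM without overlap, as S100a8 and S100a9 did, and Cxcr2 alone lay above. Of all genes, 17.3% lay above ConCM without overlap in PlGFCM and 15.7% in IL6_ConCM. The part of neutrophils in the Ly6g level was not tested.

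Muc1, Serpinb5 and Emp1 are known from epithelia, and none of 12 epithelial markers passed, with medians of -0.02 and -0.01. Their mean level was 5.31 to 5.33 in ConCM, 5.19 to 5.34 in PlGFCM and 5.27 to 5.31 in IL6_ConCM. Krt7 at -0.29 and Cldn3 at -0.21 (-0.39 without PlGFCM replicate 2) were furthest in PlGFCM, and Cldn7 at -0.21 and Krt7 at -0.16 in IL6_ConCM. None of 8 stromal markers passed, with medians of -0.12 and -0.08 and mean levels of 4.80 to 4.81 in ConCM, 4.58 to 4.73 in PlGFCM and 4.71 to 4.74 in IL6_ConCM. Lum at -0.69 (adjusted p = 0.109) and Col1a2 at -0.25 were furthest in PlGFCM, and Lum at -0.17 and Sparc at -0.16 in IL6_ConCM.

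None of 11 markers of monocytes, macrophages and dendritic cells passed, with medians of 0.10 and 0.01. Their mean level was 6.10 to 6.11 in ConCM, 6.22 to 6.28 in PlGFCM and 6.10 to 6.19 in IL6_ConCM, so the PlGFCM arrays were above the rest, and the part of such cells in the 7 genes' levels there was not tested. Cd14, a receptor of monocytes, was at 0.67 in PlGFCM (adjusted p = 0.0806) and Adgre1 at 0.38, and Lyz2 at 0.33 and Marco at 0.31 in IL6_ConCM. Of 8 B cell markers 2 fell in PlGFCM and none in IL6_ConCM, with medians of 0.20 and 0.01 and means of -0.06 and -0.06. The 2 were Ms4a1, the antigen CD20, by 0.84 ± 0.12 (SE, adjusted p = 0.0125) and Fcer2a, a low-affinity IgE receptor, by 0.86 ± 0.13 (adjusted p = 0.0205), and neither passed without replicate 2 of ConCM or without either PlGFCM array, nor without an intensity trend, nor did Ms4a1 without replicate 1 of ConCM. In IL6_ConCM they were at -0.31 and -0.49. The mean level of the B cell markers was 6.73 to 6.77 in ConCM, 6.68 to 6.70 in PlGFCM and 6.68 to 6.71 in IL6_ConCM.

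None of 8 NK and CD8 T cell markers passed, with medians of -0.11 and 0.02. Their mean level was 5.99 to 6.01 in ConCM, 5.84 to 6.04 in PlGFCM and 5.98 to 6.06 in IL6_ConCM. Prf1, the pore protein perforin, was at 0.34 and 0.33 and Cd8b1 at -0.21 and -0.18. Of 7 T cell identity genes none passed, with medians of 0.06 and 0.08, and Cd3d at 0.12 and Cd3e at 0.13 were the furthest in PlGFCM and IL6_ConCM, followed by Zap70 at 0.10 in both (0.17 in PlGFCM without its replicate 2). None of 9 surface markers of T cell activation passed, with medians of 0.02 and -0.06. Cd69, an early activation marker, was at -0.14 and -0.23, Ctla4 at 0.13 in PlGFCM and Pdcd1 at -0.17 in IL6_ConCM.

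**Figure D4:**
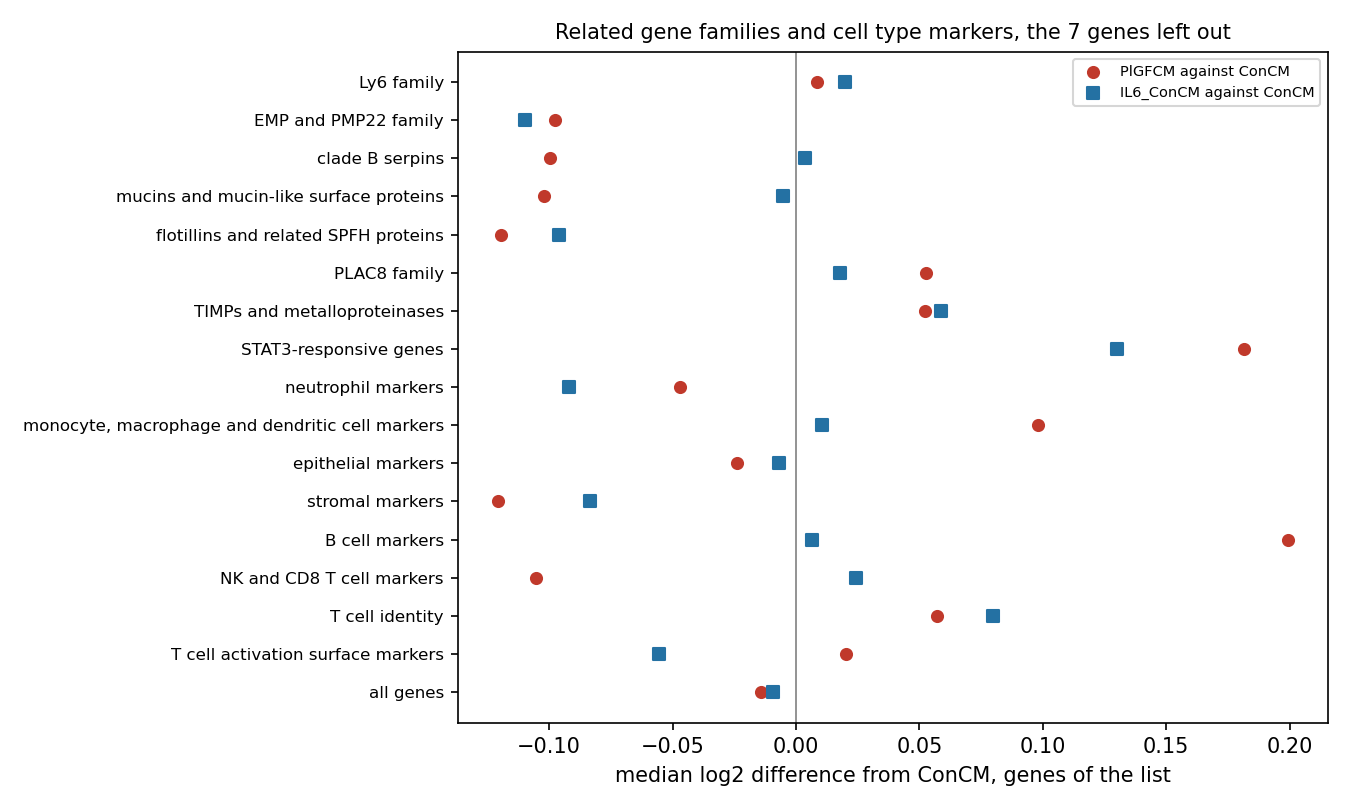
Median log2 difference from ConCM over the measured genes of each list, without the 7 genes, in PlGFCM (circles) and IL6_ConCM (squares), with all genes in the last line. All medians lie between -0.12 and 0.20, while the 7 genes themselves ran from 0.47 to 1.65.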

How the data were processed

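Biotin-labelled cDNA from 6 samples was measured with Affymetrix whole-transcript reagents, per the labels' protocols. The authors deposited 1 log2 level per probe set and array. Per the submitters' processing notes, Transcriptome Analysis Console was used, with its version, background correction, normalization and genome build not given in the sources used here. That the scale is log2 was inferred from the value range, and the deposited normalization was kept.

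Of 41345 probe sets, 23521 had 1 gene symbol, 1814 several (left out) and 16010 none listed. The brightest probe set per gene gave 22180 genes. Groups were compared with limma 3.58.1 in R 4.3.3 (lmFit, eBayes with intensity trend, all 6 arrays, 3 residual degrees of freedom), with Benjamini-Hochberg adjustment over all genes. The code was run on simulated data drawn from the spread that limma itself had fitted. That run checks the code and not whether the model holds for these arrays. Arrays give no read depth, so their number limits precision.

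The members, the 16 gene lists and the rule for named genes (list members that passed, otherwise the 2 furthest from ConCM, and the 5 genes closest in profile) were chosen with earlier results of these data known. Gene models and receptor segments were not named. Alternatives were quantile normalization, array medians subtracted, genes at or above the median level, mean of all probe sets, no trend, a robust prior, the compared arrays alone, a replicate block and each array left out. For genes outside the 7 these were added after seeing the data.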

Additional observations from a re-analysis of the deposited data

How the results depend on the processing

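All 14 alternatives kept the sign of the members' differences from ConCM (13 for Serpinb5, which the level filter removes). Of 7 members, 3 were called in PlGFCM against ConCM with each of PlGFCM replicates 1 and 2 left out and without an intensity trend, 6 with a replicate block (Plac8 lost) and up to 7 with 1 array left out. In IL6_ConCM against ConCM, 1 was called without a trend, 4 with the compared arrays alone (Flot1 and Plac8 lost), 5 with the mean of all probe sets (Emp1 lost, 0.54) and 5 with the replicate block (Plac8 lost, adjusted p = 0.0722), against 1 to 6 with 1 array left out. In PlGFCM against ConCM the block also ended the calls of Mmp13, Socs3 and Maf. In PlGFCM against IL6_ConCM 0 of 7 were called by limma in any fit that kept both arrays of each compared group, and nothing is read from that count. Muc1 there ranged from -0.075 to 0.031 with 1 array left out, turning positive without PlGFCM replicate 1. The cause was not tested.

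Over all genes, 96, 25 and 7 were called in PlGFCM against ConCM, IL6_ConCM against ConCM and PlGFCM against IL6_ConCM. Without a trend these counts were 6, 1 and 0, and at or above the median level, with fewer genes tested, 168 and 52 in the comparisons with ConCM. With the replicate block they were 62 and 16, and with the compared arrays alone the IL6_ConCM count was 12. With 1 array left out they ran from 12 to 107, 2 to 41 and 0 to 5, where a lone array is assumed to vary like the other groups. Deviations of same-numbered arrays correlated at -0.04 to 0.11 across genes, so the numbers were not taken as pairs.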
